A study of Mus musculus with 32 samples.

Results

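Wisp2, also named Ccn5, was followed across every group of a mouse RNA sequencing study of synovium and cartilage. It is 1 of 1178 genes in the synovium table and 1 of 1606 genes in the cartilage table. The gene was selected on its measured values in these samples, so its own levels and differences are given as a description with no test. All samples came from C57BL/6 mice, and RNA was taken from the removed tissue with Trizol. The groups were R1, R2, Control, MMS D3, MMS D7 and MMS D14 in both tissues, with MMS D28 in cartilage in addition. The labels speak of an MMS model. What MMS, R1 and R2 stand for is not said there, nor the unit of the numbers after D, so these names are used as given. Synovium had n = 3 samples in each of its 6 groups (18 samples) and cartilage had n = 2 in each of its 7 groups (14 samples). The labels do not say that replicates were separate animals, so every p-value measures the spread between these samples only.

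Wisp2 encodes a secreted matricellular protein of the CCN family, whose members bind matrix, growth factors and cell surface receptors such as integrins rather than serving as structural fibres. It was described as a transcript induced by Wnt1 signalling. It lacks the carboxy-terminal cystine knot domain that the other family members carry, and in the mouse heart it has been studied as a counterpart of the profibrotic member Ctgf. In mesenchymal precursor cells in culture it is known for holding back commitment to the adipocyte lineage. On GRCm38, with the GENCODE vM21 annotation, Wisp2 lies on chromosome 2 from 163820861 to 163833146 on the plus strand, as Ccn5. Its main transcript has 5 exons and a coding sequence of 251 codons, against 379 for Cyr61 (Ccn1), 348 for Ctgf (Ccn2) and 367 for Wisp1 (Ccn4).

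The synovium values are FPKM, fragments scaled by transcript length and by the mapped fragments of the library, while the cartilage values are a normalised signal of unstated unit. Neither table gives read totals, so sequencing depth is unknown, and the number of samples limits the precision. Both tables hold selected genes. In synovium 98.0% of them differed at least 1.5-fold between the means of MMS D14 and Control, and in cartilage 99.0% did so between MMS D28 and Control. A set of 5 synovium libraries stood apart, with the predicted genes Gm2023 at 1.71 to 3.36 FPKM and Gm6958 at 1.17 to 2.30 FPKM. In the other 13 libraries Gm2023 lay at 12.6 to 56.2 FPKM and Gm6958 at 5.12 to 20.5 FPKM. The 5 were replicate 3 of each synovium group except R1. Of 8 markers of the synovial lining 4 were in the synovium table, as were 16 of 16 adipocyte markers and 0 of 12 macrophage markers, and of 17 chondrocyte markers 14 were in the cartilage table.

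In synovium Wisp2 was low in Control and high in all MMS samples, with R1 and R2 in between. It stood at 59.9, 67.3 and 58.5 FPKM in R1 and at 70.4, 46.4 and 61.1 FPKM in R2. Control had 17.2, 21.6 and 13.3 FPKM. The MMS D3 samples had 224, 202 and 162 FPKM, the MMS D7 samples 259, 220 and 238 FPKM, and the MMS D14 samples 234, 227 and 254 FPKM. Each of the 9 MMS samples lay above each R1 and R2 sample, and each R1 and R2 sample lay above each Control sample.

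**Figure D1:**
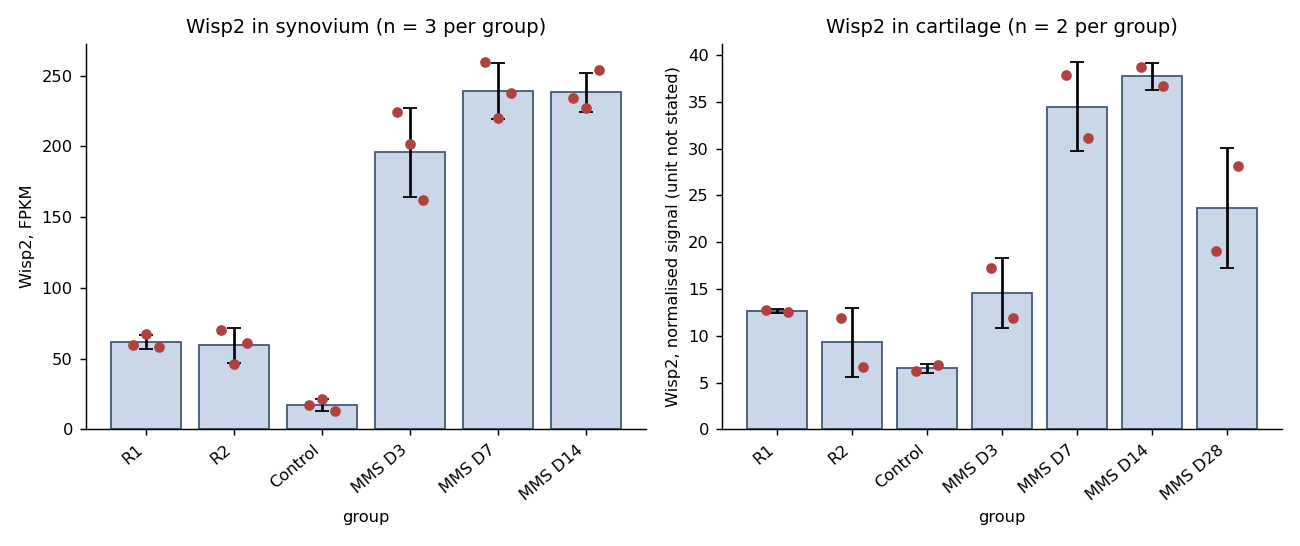
Wisp2 level by group in synovium (left, FPKM, n = 3) and cartilage (right, normalised signal of unstated unit, n = 2). Points are samples, bars are group means and whiskers are 1 SD. All MMS samples of synovium lie at 162 FPKM or above, and all Control samples at 21.6 FPKM or below.

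The synovium mean was 61.9 ± 4.74 FPKM in R1 and 59.3 ± 12.1 FPKM in R2, against 17.4 ± 4.12 FPKM in Control (SD, n = 3 each). MMS D3 averaged 196 ± 31.4, MMS D7 239 ± 19.8 and MMS D14 238 ± 13.8 FPKM. The ratio of means to Control was therefore 3.56 in R1 and 3.42 in R2, and 11.3, 13.8 and 13.7 at MMS D3, D7 and D14. R1 and R2 thus held 26.0% and 24.9% of the MMS D14 level, where Control held 7.29%. The first MMS group already carried most of the difference. On the log2(FPKM + 1) scale, MMS D3 had reached 92.2% of the MMS D14 difference from Control.

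Placed in order, the synovium group means ran from Control through R2, R1, MMS D3 and MMS D14 to MMS D7. Among neighbours, R1 and R2 overlapped and differed by 2.57 FPKM, less than their pooled SD of 9.18 FPKM. MMS D7 and MMS D14 overlapped too and differed by 0.757 FPKM, with a pooled SD of 17.1 FPKM. MMS D14 and MMS D3 did not overlap, with a difference of 42.3 FPKM over a pooled SD of 24.3 FPKM. The remaining neighbours, R2 over Control and MMS D3 over R1, were separated without overlap.

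The log2 difference from Control in synovium was 1.80 in R1, 1.72 in R2, 3.44 at MMS D3, 3.73 at MMS D7 and 3.73 at MMS D14, each with a limma standard error of 0.18. R1 stood at -1.93 and R2 at -2.01 with MMS D14 as the base. Counted from the highest of the 1178 genes, Wisp2 stood at rank 3 at MMS D3, rank 6 at MMS D7 and rank 11 at MMS D14. It stood at rank 19 in R1 and rank 17 in R2. From the lowest, with MMS D14 as the base, it was at rank 36 in R1 and rank 38 in R2.

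The median log2 difference from Control of all synovium genes was -0.38 in R1 and in R2, and -0.34, -0.65 and -1.08 at MMS D3, D7 and D14. The table holds selected genes, and more of them were called lower than higher in each of these groups. The medians are therefore no neutral baseline. The median was 0.65 for R1 and 0.64 for R2 with MMS D14 as the base. Wisp2 minus the median difference from Control was 2.17 in R1, 2.10 in R2, 3.78 at MMS D3, 4.38 at MMS D7 and 4.81 at MMS D14. With MMS D14 as the base, Wisp2 minus the median was -2.58 for R1 and -2.65 for R2. The place of Wisp2 within each sample moved the same way. It ranked at the 81.3rd to 84.5th percentile of the table in R1 samples and the 77.4th to 85.1st in R2 samples, against the 43.8th to 56.2nd in Control samples. It ranked between the 92.0th and the 96.3rd percentile in the MMS samples.

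The synovium libraries with low Gm2023 and Gm6958 were looked at by themselves. Within those 5 libraries, with 1 sample a group, the log2 difference from Control was 2.12 in R2, 3.51 at MMS D3, 4.06 at MMS D7 and 4.15 at MMS D14. Within the other 13 it was 1.63 in R1, 1.52 in R2, 3.40 at MMS D3, 3.56 at MMS D7 and 3.51 at MMS D14. Against MMS D14, R2 was at -2.04 within the 5 libraries and at -1.99 within the 13, and R1 was at -1.88 within the 13. The direction could not differ between the sets, since the samples of the groups compared did not overlap. Only the sizes of the differences are informative here.

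In cartilage Wisp2 was again higher in the MMS groups than in Control, with its top at MMS D7 and MMS D14 and a smaller multiple of Control. Its signal was 12.8 and 12.5 in R1 and 11.9 and 6.69 in R2. Control had 6.19 and 6.89. The MMS D3 samples had 17.2 and 11.9, the MMS D7 samples 37.9 and 31.2, the MMS D14 samples 38.8 and 36.7, and the MMS D28 samples 19.1 and 28.2. All 8 MMS samples and both R1 samples lay above both Control samples, while 1 R2 sample lay inside the Control range and the other above it.

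The cartilage means were 12.7 ± 0.191 in R1 and 9.29 ± 3.68 in R2, against 6.54 ± 0.495 in Control (SD, n = 2 each). They were 14.5 ± 3.75 at MMS D3, 34.5 ± 4.72 at MMS D7, 37.8 ± 1.44 at MMS D14 and 23.6 ± 6.43 at MMS D28. The ratio to Control was 1.94 in R1 and 1.42 in R2, and 2.22, 5.28, 5.77 and 3.62 along the MMS groups. The highest level lay at MMS D14, and MMS D28 held 62.6% of it. MMS D3 held 38.5% of the MMS D14 level in cartilage, where the synovium figure was 82.2%.

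In order, the cartilage means ran from Control through R2, R1, MMS D3, MMS D28 and MMS D7 to MMS D14. R2 and Control overlapped, as did MMS D3 and R1, which differed by 1.88 with a pooled SD of 2.66. MMS D14 and MMS D7 overlapped as well and differed by 3.25, with a pooled SD of 3.49. R1 over R2, MMS D28 over MMS D3 and MMS D7 over MMS D28 were separated without overlap, each with 2 samples a group.

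The cartilage log2 differences from Control were 0.86 in R1, 0.40 in R2, 1.02 at MMS D3, 2.23 at MMS D7, 2.36 at MMS D14 and 1.69 at MMS D28, each with a standard error of 0.25. The R2 difference rested on 1 library, since it was 0.03 without R2 replicate 1 and 0.78 without R2 replicate 2. Cartilage R1 stood at -1.50 and R2 at -1.96 with MMS D14 as the base. Wisp2 stood at rank 4 from the highest of 1606 genes at MMS D7, rank 13 at MMS D14, rank 16 at MMS D28 and rank 35 at MMS D3. It was at rank 102 in R1 and rank 82 in R2. The median of all cartilage genes moved by -0.19 in R1 and -0.49 at MMS D28 and by less than 0.1 in the other comparisons. Relative to the median, Wisp2 was higher by 1.05 in R1 and by 2.18 at MMS D28.

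Set side by side, MMS D3 reached 92.2% of the MMS D14 log2 difference in synovium and 43.3% in cartilage, and MMS D7 reached 100.1% in synovium and 94.4% in cartilage. R1 stood at 48.2% of it in synovium and 36.4% in cartilage, and R2 at 46.1% in synovium and 17.1% in cartilage. The 2 tables were normalised separately, so the difference between the tissues was not tested.

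Before the related genes, the background of the limma test is needed, since the tables hold genes selected for differing between groups. In synovium the share of the 1178 genes called higher than Control at an adjusted p under 0.05 was 15.9% in R1, 15.7% in R2, 16.3% at MMS D3, 24.1% at MMS D7 and 27.7% at MMS D14. The share called lower was 45.2%, 45.1%, 39.6%, 61.6% and 69.3% in the same order. Against MMS D14, R1 had 63.2% higher and 25.8% lower, and R2 had 63.0% higher and 25.5% lower. Centring each sample on its median moved the split. It changed 187 higher and 533 lower genes to 245 and 419 in R1 against Control, and 185 and 531 to 252 and 365 in R2 against Control. For R1 against MMS D14 it changed 745 higher and 304 lower genes to 474 and 331.

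In cartilage the share of the 1606 genes called higher than Control was 36.0% in R1, 0.0623% in R2, 12.9% at MMS D3, 6.79% at MMS D7, 25.5% at MMS D14 and 42.7% at MMS D28. The share called lower was 33.3%, 0.685%, 11%, 15.6%, 28% and 54.6% in the same order. Against MMS D14, R1 had 8.28% higher and 9.78% lower, and R2 had 19.8% higher and 15.9% lower. Here centring changed 578 higher and 534 lower genes to 624 and 308 in R1 against Control, and 109 and 250 to 148 and 184 at MMS D7. Members of the gene lists below are read against these shares. A member is said to hold where its call stayed in the same direction under each alternative listed with the methods, with any 1 library left out.

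Of the other CCN genes, Ctgf and Cyr61 were measured in synovium, and Ctgf and Wisp1 in cartilage. Each had an order of groups other than that of Wisp2. Ctgf, the connective tissue growth factor long tied to fibrosis, was the most abundant of the 3 synovium members. It had 883, 924 and 1032 FPKM in R1 and 879, 851 and 1036 FPKM in R2, against 484, 585 and 590 FPKM in Control. The MMS D14 samples had 333, 431 and 333 FPKM. All R1 and R2 samples lay above all Control samples, and all MMS D14 samples lay below them.

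Ctgf rose in R1 by 0.78 ± 0.17 (log2, limma standard error, adjusted p = 0.00123) and in R2 by 0.74 ± 0.17 (adjusted p = 0.00185), and both calls held. Relative to MMS D14, it was higher by 1.38 in R1 (limma adjusted p = 7.18e-06) and by 1.34 in R2 (adjusted p = 8.44e-06), and both held. At MMS D14 it fell by 0.60 against Control (adjusted p = 0.00281), less than the median of all genes. That call ended when samples were centred, at -0.08 (adjusted p = 0.647, over a range of 0.00154 to 0.647 across the alternatives). At MMS D3 and MMS D7 its difference was -0.41 (limma adjusted p = 0.0511) and -0.32 (adjusted p = 0.0850). The MMS D3 difference was called without Control replicate 1 (0.0420) or MMS D3 replicate 1 (0.0413), with the replicate block (0.0494), with no variance trend (0.0446) and with a term for the 5 libraries (0.0387), in a range up to 0.163. The MMS D7 difference was called without MMS D7 replicate 2 (0.0419), in a range up to 0.822.

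Cyr61, an immediate early gene of the family, stood at 78.7, 22.9 and 28.5 FPKM in R1 and 31.0, 32.8 and 37.8 FPKM in R2, against 26.4, 49.7 and 35.02 FPKM in Control. It was at 139, 67.6 and 27.6 FPKM at MMS D3, 74.0, 62.5 and 89.7 at MMS D7 and 101, 107 and 90.6 at MMS D14. The MMS D7 and MMS D14 samples lay above all Control samples, while the MMS D3 samples spread across the range of both. Cyr61 was higher than Control by 1.45 ± 0.46 at MMS D14 (log2, limma adjusted p = 0.00615), a call that held. At MMS D7 it was higher by 1.04 (adjusted p = 0.0430). That call ended without Control replicate 1 (0.143), Control replicate 3 (0.0843), MMS D7 replicate 1 (0.0767), MMS D7 replicate 3 (0.124) or the 5 libraries with low Gm2023 (0.107), over a range of 0.00340 to 0.143. At MMS D3 the difference was 0.82 (limma adjusted p = 0.135), and without MMS D3 replicate 3 it was 1.41 (adjusted p = 0.00784, range 0.00784 to 0.637). Without the 5 libraries with low Gm2023 it was called too, at adjusted p = 0.0245.

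In R1 and R2 Cyr61 was not called against Control. It differed from Control by 0.05 in R1 (limma adjusted p = 0.921) and by -0.09 in R2 (adjusted p = 0.881), the R2 value turning to 0.13 when centred. Its difference relative to MMS D14 was -1.39 in R1 (limma adjusted p = 0.00955) and -1.53 in R2 (adjusted p = 0.00524). The R1 call ended without R1 replicate 2, at adjusted p = 0.0537 (range 0.00113 to 0.0537), and the R2 call held. Wisp2 lay above all Control samples in every R1 and R2 synovium sample.

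**Figure D2:**
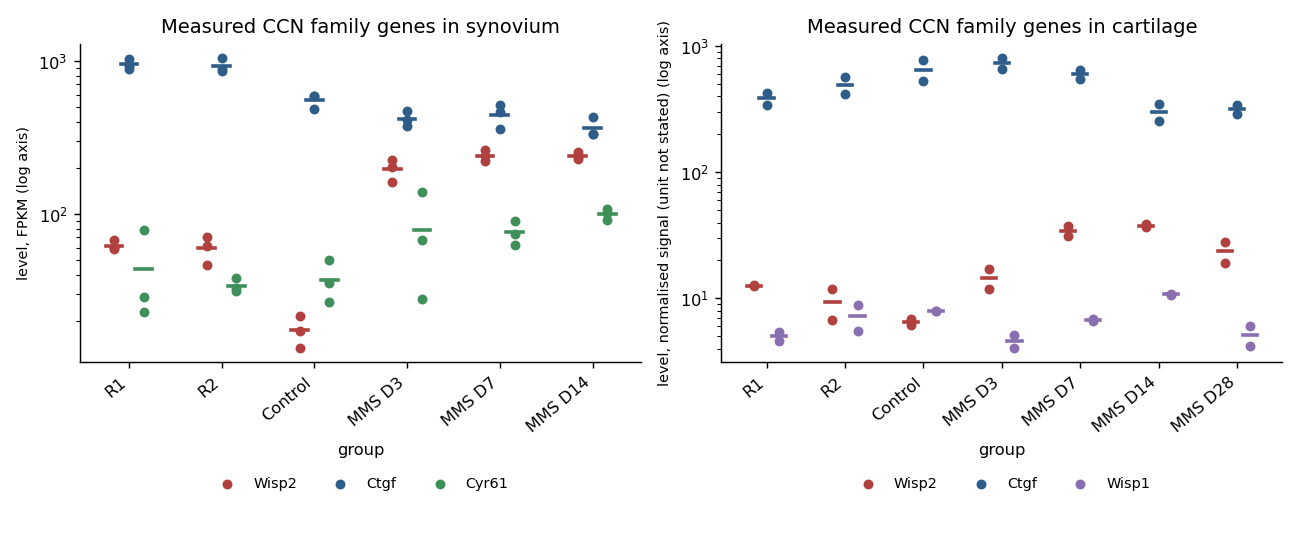
Levels of the measured CCN family genes by group in synovium (left, FPKM, log axis) and cartilage (right, normalised signal of unstated unit, log axis). Points are samples and lines are group means. In synovium Wisp2 approaches Ctgf in the MMS groups and lies far below it in R1, R2 and Control.

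FPKM values are per length, so levels of the family can be set against each other within synovium. Wisp2 per Ctgf was 0.0657 ± 0.00825 in R1 and 0.0646 ± 0.0137 in R2, against 0.0317 ± 0.00791 in Control (SD, n = 3 each). The ratio was 0.471 ± 0.0707 at MMS D3, 0.550 ± 0.116 at MMS D7 and 0.664 ± 0.123 at MMS D14. Wisp2 per Cyr61 was 1.92 ± 1.10 in R1 and 1.77 ± 0.446 in R2, against 0.489 ± 0.144 in Control, and 3.49 ± 2.18, 3.23 ± 0.496 and 2.41 ± 0.352 along the MMS groups. Wisp2 was thus the least abundant of the 3 members in Control synovium and passed Cyr61 in each MMS sample, since the lowest MMS ratio was 1.61. These ratios contain Wisp2 itself and carry no test.

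In cartilage Ctgf had a signal of 344 and 429 in R1 and 420 and 570 in R2, against 533 and 775 in Control. It had 256 and 347 at MMS D14 and 292 and 340 at MMS D28. All R1, MMS D14 and MMS D28 samples lay below both Control samples. Ctgf fell by 1.11 ± 0.23 at MMS D14 (log2, limma adjusted p = 0.00226) and by 1.03 ± 0.23 at MMS D28 (adjusted p = 0.00166), and both calls held. In R1 it fell by 0.74 (adjusted p = 0.0165), which ended without Control replicate 1 (0.154) or R1 replicate 1 (0.111), over a range of 0.0142 to 0.154. In R2 the difference was -0.39 (limma adjusted p = 0.422), and at MMS D3 and MMS D7 it was 0.18 (adjusted p = 0.624) and -0.10 (adjusted p = 0.815), the last turning to 0.01 when centred. With MMS D14 as the base it was 0.36 in R1 (limma adjusted p = 0.292) and 0.71 in R2 (adjusted p = 0.0318). The R2 call ended without MMS D14 replicate 2 (0.238), without R2 replicate 2 (0.203) or with only the 2 groups fitted (0.0573), over a range of 0.0246 to 0.238.

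Wisp1, the family member also first described as Wnt1-induced, had a cartilage signal of 4.61 and 5.45 in R1 and 5.55 and 8.88 in R2, against 7.91 and 8.0 in Control. It had 4.07 and 5.13 at MMS D3, 6.58 and 6.93 at MMS D7, 10.7 and 10.8 at MMS D14 and 4.18 and 6.05 at MMS D28. Its highest group was MMS D14, as for Wisp2, yet it lay below Control at MMS D3, D7 and D28 where Wisp2 lay above. Against Control the limma difference was -0.57 in R1 (adjusted p = 0.0231), -0.15 in R2 (adjusted p = 0.691), -0.68 at MMS D3 (adjusted p = 0.0266), -0.21 at MMS D7 (adjusted p = 0.511), 0.39 at MMS D14 (adjusted p = 0.103) and -0.57 at MMS D28 (adjusted p = 0.0150). None of the 3 calls among these held. The MMS D3 call ended on leaving out any 1 of its 4 libraries, with adjusted p up to 0.189 in a range from 0.00333. The R1 call ended without Control replicate 1 (0.0807), Control replicate 2 (0.0729) or R1 replicate 2 (0.124), in a range from 0.00558. The MMS D28 call ended without Control replicate 2 (0.0522), without MMS D28 replicate 1 (0.146) or when centred (0.0519), in a range from 0.00493, and the MMS D14 difference was called when centred (0.0415) or with only the 2 groups fitted (0.0234).

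With MMS D14 cartilage as the base, the Wisp1 difference was -0.97 in R1 (limma adjusted p = 0.00545) and -0.55 in R2 (adjusted p = 0.0470). The R1 call ended without R1 replicate 2 (0.0584, in a range from 0.00116). The R2 call ended with a pseudocount of 0.1 (0.0538), with the replicate block (0.0558), with only the 2 groups fitted (0.0833), and without MMS D14 replicate 1 (0.127), MMS D14 replicate 2 (0.145) or R2 replicate 2 (0.362), in a range from 0.00861. Wisp2 was lower than MMS D14 in both R1 samples and both R2 samples of cartilage.

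The genes whose pattern lay nearest to that of Wisp2 were named by the root mean square, over all samples of a tissue, of the difference between their log2 distances from the Control mean. A small value means a like course in height as well as in shape. In synovium, over 18 samples and 1148 ranked genes with a median value of 3.34, the nearest were Nt5dc2 (0.475), Ccl8 (0.530), Ibsp (0.632), Postn (0.742), Lox (0.808), Cilp (0.827), Tnfaip6 (0.874) and Scx (0.904). Ccl8 is a chemokine, Ibsp a bone sialoprotein, Postn a matricellular protein, Lox a collagen crosslinking enzyme, Cilp a cartilage matrix protein, Tnfaip6 a hyaluronan-binding protein and Scx a tendon transcription factor.

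These 8 covered a wide range of levels. Nt5dc2 averaged 23.9 ± 6.61 FPKM in R1 and 13.1 ± 1.87 FPKM in R2, against 5.54 ± 1.10 FPKM in Control, and 136 ± 17.8 FPKM at MMS D14 (SD, n = 3 each). Lox was already at 170 ± 28.6 FPKM at MMS D3 and stood at 27.2 ± 5.72 FPKM in R1 and 26.6 ± 1.08 FPKM in R2, against 17.2 ± 2.14 FPKM in Control. Postn had 307 ± 136 FPKM in R1, 317 ± 44.9 FPKM in R2 and 305 ± 93.8 FPKM at MMS D3, against 78.3 ± 6.13 FPKM in Control. Lox was thus high from MMS D3 on, with a log2 difference of 0.62 in R1 and 0.61 in R2. Postn and Scx climbed along the MMS groups, with a log2 difference of 1.90 and 1.55 at MMS D3 and of 3.56 and 3.44 at MMS D14.

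**Figure D3:**
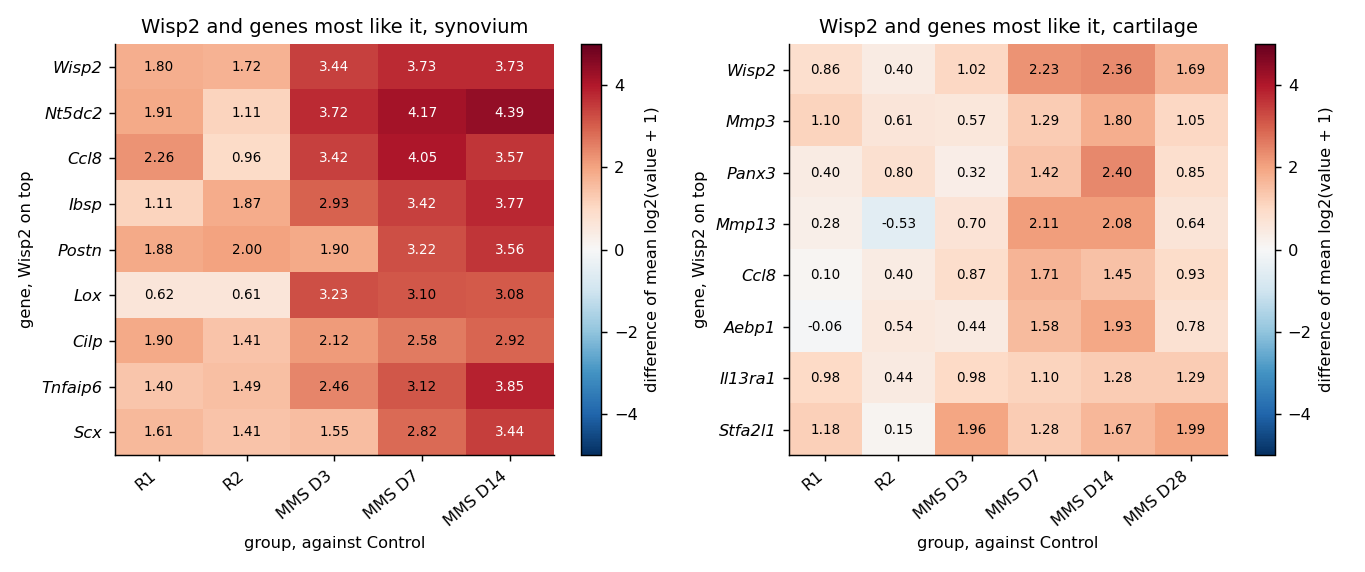
Log2 difference of group means from Control, on the log2(value + 1) scale, for Wisp2 (top row) and genes with the most similar course in synovium (left, 8 genes) and cartilage (right). Colours and printed values show the difference. Wisp2 in synovium runs at 3.44, 3.73 and 3.73 at MMS D3, D7 and D14.

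In cartilage, over 14 samples and 1559 ranked genes with a median value of 1.64, the nearest 8 included Mmp3 (0.573), Panx3 (0.595), Mmp13 (0.612), Ccl8 (0.614), Aebp1 (0.633), Il13ra1 (0.635) and Stfa2l1 (0.639). Mmp3 and Mmp13 are matrix metalloproteinases, Mmp13 being a collagenase of hypertrophic chondrocytes, and Panx3 is a channel protein of skeletal cells. Mmp13 had a signal of 131 ± 10.51 in R1 and 81.8 ± 48.8 in R2, against 108 ± 9.82 in Control, and 471 ± 79.1 at MMS D7 and 458 ± 28.2 at MMS D14 (SD, n = 2 each). Panx3 had 4.63 ± 1.17 in R1 and 7.03 ± 4.54 in R2, against 3.25 ± 0.516 in Control, and 21.4 ± 2.45 at MMS D14. Both were highest in the MMS D7 or MMS D14 group, which follows from their choice by likeness to Wisp2. Without Control replicate 2, 4 of the 8 were again among the nearest, and without MMS D14 replicate 2, 5 were.

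Ccl8 was the only gene named in both tissues, 12.5% of each set of 8. Its log2 difference from Control was 2.26 in R1, 0.96 in R2, 3.42 at MMS D3, 4.05 at MMS D7 and 3.57 at MMS D14 in synovium. In cartilage it was 0.10 in R1, 0.40 in R2, 0.87 at MMS D3, 1.71 at MMS D7, 1.45 at MMS D14 and 0.93 at MMS D28. Of the 8 synovium genes 6 were in the cartilage table, where Ibsp ranked 816 and Cilp 1523 in likeness to Wisp2. Of the 8 cartilage genes 3 were in the synovium table, where Mmp3 ranked 18.

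Genes of the Wnt pathway were followed because Wisp2 was first described as a Wnt-induced transcript. In synovium 5 of 43 listed Wnt ligands and receptors were measured, all of them receptors. Of these 5, 3 rose and 1 fell in R1 (2 and 0 held), 4 rose in R2 (3 held), 1 rose at MMS D3 (0 held), 4 rose at MMS D7 (4 held), and 4 rose and 1 fell at MMS D14 (4 and 1 held). Their median log2 difference was 0.65 in R1, 0.56 in R2, 0.25, 0.87 and 1.24 along MMS D3, D7 and D14, where the medians of all genes given above were negative. The R1 fall, of Fzd4, ended without Control replicate 3, R1 replicate 2 or R1 replicate 3, and the MMS D3 count was 2 without MMS D3 replicate 3, with Fzd2 added, as it was with the replicate block (Fzd2, adjusted p = 0.0487). Leaving out R2 replicate 3 gave 1 fall in R2, and leaving out the 5 libraries with low Gm2023 gave 1 fall in R2 and 1 at MMS D7.

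The receptor Ror2, which binds Wnt5a, averaged 7.05 ± 1.07 FPKM at MMS D14, against 1.76 ± 0.405 FPKM in Control, a log2 difference of 1.54 ± 0.19 (limma adjusted p = 7.62e-07). The frizzled receptor Fzd8 averaged 6.83 ± 1.08 FPKM in R1 and 6.35 ± 0.264 FPKM in R2, against 3.98 ± 0.210 FPKM in Control, which were rises of 0.65 (limma adjusted p = 0.00153) and 0.56 (adjusted p = 0.00391). Fzd4 ran the other way at MMS D14, with 6.67 ± 2.59 FPKM against 16.2 ± 2.29 FPKM in Control (-1.22, limma adjusted p = 4.84e-05). Ror2 at MMS D14, Fzd8 in R1 and R2 and Fzd4 at MMS D14 all held.

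In cartilage 10 of 43 listed ligands and receptors were measured, and most calls were falls. In R1 7 fell (1 held), in R2 and at MMS D3 none was called, at MMS D7 1 rose and 1 fell (0 held), at MMS D14 1 rose and 6 fell (1 and 4 held), and at MMS D28 9 fell (5 held). The list median log2 difference was -0.48 in R1, -0.28 in R2, 0.11 at MMS D3 and -0.29 at MMS D7. It was -0.66 at MMS D14 and -0.70 at MMS D28. The median of all cartilage genes was -0.19 in R1, 0.03 at MMS D14 and -0.49 at MMS D28. In the same order 33.3%, 28% and 54.6% of all cartilage genes were called lower. The R1 count fell to 2 without Control replicate 1, R1 replicate 1 or R1 replicate 2 and to 4 without Control replicate 2, and the MMS D28 count fell to 5 without MMS D28 replicate 1, where 1 rise was called. At MMS D7 the rise ended without Control replicate 1, Control replicate 2 or MMS D7 replicate 1. The fall there ended without any of these and was joined by 2 others without MMS D7 replicate 2. At an unadjusted limma p under 0.05, 3 of the 10 were lower in R2 and 4 were higher at MMS D3.

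Lgr6, a receptor for the R-spondins that amplify Wnt signals, had a cartilage signal of 9.44 ± 0.693 at MMS D14 and 12.5 ± 0.863 at MMS D28, against 30.0 ± 5.18 in Control (SD, n = 2 each). These were falls of 1.56 (limma adjusted p = 0.000103) and 1.19 (adjusted p = 0.000478) on the log2 scale. The ligand Wnt11 had 1.52 ± 0.0566 in R1 and 1.28 ± 0.226 at MMS D14, against 4.25 ± 0.368 in Control, and fell by 1.06 in R1 (limma adjusted p = 0.00181) and by 1.21 at MMS D14 (adjusted p = 0.000286). Both genes held in these comparisons. Fzd1 rose at MMS D14 by 0.91 (limma adjusted p = 0.00419), which held too.

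Secreted Wnt antagonists act outside the cell, many of them by binding Wnts or their co-receptors. In synovium 5 of 15 were measured, and rises outnumbered falls, with 2 rises in R1 (2 held), 2 rises and 1 fall in R2 (2 and 1 held), 3 and 1 at MMS D3 (1 and 1 held), 3 and 1 at MMS D7 (3 and 0 held) and 3 and 1 at MMS D14 (3 and 1 held). The rises at MMS D3 came to 1 without MMS D3 replicate 1, and the fall at MMS D7 ended without Control replicate 1, Control replicate 2 or MMS D7 replicate 3. Leaving out the 5 libraries with low Gm2023 gave 1 fall in R1. The list median was 0.61 in R1, 0.80 in R2, 0.90 at MMS D3, 1.62 at MMS D7 and 1.58 at MMS D14. Of all synovium genes 15.9%, 15.7%, 16.3%, 24.1% and 27.7% were called higher in the same order.

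Dkk3, a divergent dickkopf member, was at 32.1 ± 8.07 FPKM in R1 and 32.15 ± 1.003 FPKM in R2, against 7.64 ± 0.815 FPKM in Control, and at 16.3 ± 3.2, 42.5 ± 13.8 and 97.7 ± 15.2 FPKM at MMS D3, D7 and D14. Its rise of 1.91 in R1 (limma adjusted p = 1.65e-05) and 1.94 in R2 (adjusted p = 1.68e-05) stood beside a difference of 1.80 in R1 and 1.72 in R2 for Wisp2, and its means climbed along the MMS groups. Sfrp4, a secreted frizzled-related protein, was at 131 ± 16.6 FPKM in R1 and 152 ± 28.1 FPKM in R2, against 62.8 ± 13.2 FPKM in Control, and at 32.6 ± 17.9 FPKM at MMS D3. It rose by 1.07 in R1 (limma adjusted p = 0.00319) and 1.27 in R2 (adjusted p = 0.00110) and fell by 1.03 at MMS D3 (adjusted p = 0.00465). All calls of Dkk3 and these of Sfrp4 held. Sfrp4 was thus lowest at MMS D3 and highest in R1 and R2.

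In cartilage 5 of 15 antagonists were measured, Sfrp5, Dkk1, Wif1, Sost and Notum, and none was called higher in any comparison with Control. The number that fell was 4 in R1 (2 held), 2 in R2 (0 held), 2 at MMS D3 (0 held), 3 at MMS D7 (1 held), 4 at MMS D14 (4 held) and 5 at MMS D28 (5 held). Their median was -0.74 in R1, -0.19 in R2, -0.34 at MMS D3 and -0.66 at MMS D7. It was -1.31 at MMS D14 and -1.58 at MMS D28. The median of all cartilage genes was -0.19 in R1, 0.03 at MMS D14 and -0.49 at MMS D28. In the same order 33.3%, 28% and 54.6% of all cartilage genes were called lower. The R1 count came to 2 without Control replicate 1 or R1 replicate 2, and the R2 count to 0 without Control replicate 1, Control replicate 2 or R2 replicate 2 and to 1 without R2 replicate 1. The MMS D3 count came to 0 without Control replicate 1 or MMS D3 replicate 2 and to 1 without Control replicate 2.

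Sfrp5 had a cartilage signal of 4.19 ± 0.368 at MMS D14, against 36.1 ± 7.33 in Control (-2.82 ± 0.25, limma adjusted p = 7.96e-06). Sost, the osteocyte product sclerostin, had 33.98 ± 2.82 in R1 and 35.1 ± 0.665 at MMS D14, against 95.4 ± 1.73 in Control, falls of 1.46 (limma adjusted p = 0.00037) and 1.42 (adjusted p = 8.37e-05). Dkk1, which blocks the co-receptors Lrp5 and Lrp6, had 3.19 ± 0.700 at MMS D28, against 13.1 ± 0.863 in Control, a fall of 1.76 (limma adjusted p = 8.23e-06). All of these held.

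Of 25 listed intracellular Wnt components and targets, synovium had Nkd2 and the hyaluronan receptor Cd44, and both rose at MMS D7 and MMS D14 and held. In R1 both rose (Nkd2 held), in R2 Cd44 rose and at MMS D3 Nkd2 rose, and neither of those held. The replicate block added Nkd2 in R2 (adjusted p = 0.0396). Cd44 in R1 ended without R1 replicate 2, Cd44 in R2 without any 1 library but Control replicate 2 and R2 replicate 3, and Nkd2 at MMS D3 without Control replicate 3, MMS D3 replicate 1 or MMS D3 replicate 2. In cartilage Lef1, Notum, Cd44 and Wisp1 were measured. There 1 rose and 1 fell in R1 (0 held), 0 were called in R2, 3 fell at MMS D3 (0 held), 0 were called at MMS D7 (1 higher and 2 lower at an unadjusted limma p under 0.05, and 1 higher in R2), Cd44 rose at MMS D14 (0.63, limma adjusted p = 0.00157) and held, and 1 rose and 3 fell at MMS D28 (1 and 1 held). The falls at MMS D3 came to 0 or 1 on leaving out any of its 4 libraries. The fall in R1 ended without Control replicate 1, Control replicate 2 or R1 replicate 2, the rise without the first or the last of these, and the falls at MMS D28 came to 1 without MMS D28 replicate 1.

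**Figure D4:**
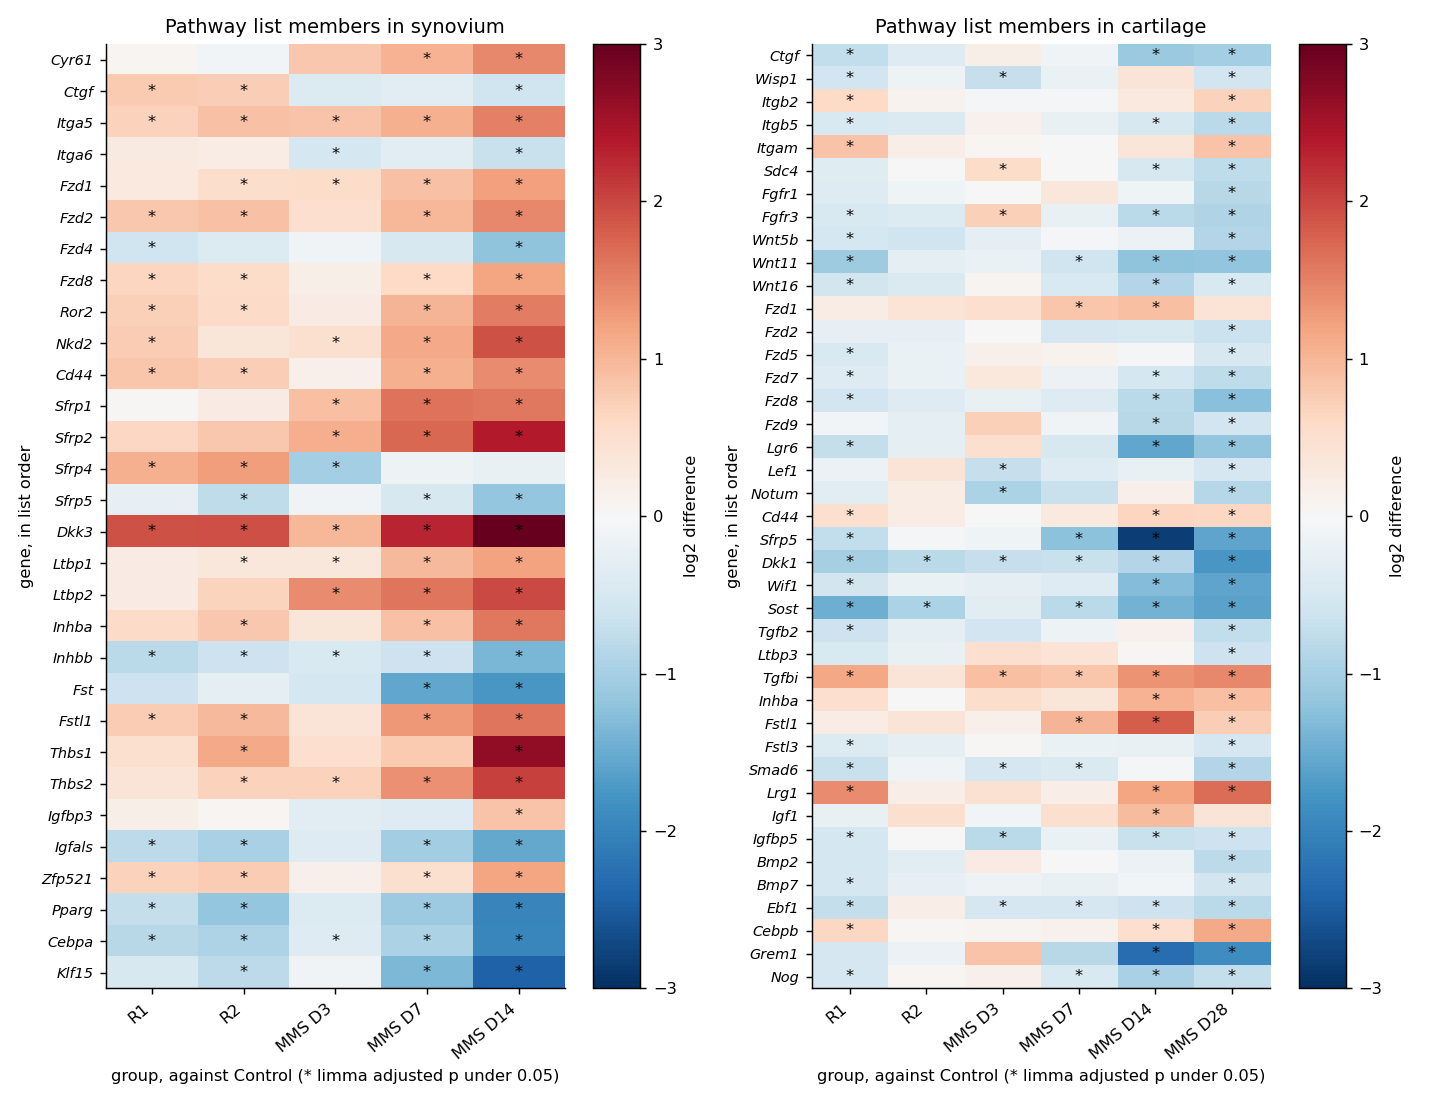
Log2 difference from Control of the measured pathway list members other than Wisp2 that are reported here, in synovium (left) and cartilage (right), with stars at a limma adjusted p under 0.05. The secreted Wnt antagonists of cartilage carry no rise, and Dkk3 of synovium rises in all 5 groups.

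TGF-beta and activin genes were taken as the profibrotic setting in which CCN proteins are usually studied. In synovium 9 of 33 were measured. Of them 1 rose and 1 fell in R1 (1 and 1 held), 5 and 1 in R2 (2 and 1 held), 4 and 1 at MMS D3 (2 and 0 held), 6 and 2 at MMS D7 (5 and 1 held) and 7 and 2 at MMS D14 (7 and 2 held). The list median was 0.38 in R1, 0.70 in R2, 0.39 at MMS D3, 0.97 at MMS D7 and 1.60 at MMS D14. Of all synovium genes 15.9%, 15.7%, 16.3%, 24.1% and 27.7% were called higher in the same order. The R2 rises came to 2 without Control replicate 1, Control replicate 2 or R2 replicate 1 and to 3 without R2 replicate 2, and the MMS D3 rises to 2 without Control replicate 1. The fall at MMS D3 ended without any 1 library but MMS D3 replicate 2, and leaving out the 5 libraries with low Gm2023 gave R1 3 rises and 2 falls.

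Thbs2, a matricellular thrombospondin, was at 96.0 ± 15.6 FPKM at MMS D14, against 22.4 ± 3.84 FPKM in Control (2.05 ± 0.21, limma adjusted p = 1.15e-07). Fst, the activin-binding follistatin, was at 7.02 ± 1.61 FPKM at MMS D14, against 25.95 ± 5.36 FPKM in Control (-1.75, limma adjusted p = 4.93e-05). Both held.

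In cartilage 9 of 33 TGF-beta and activin genes were measured, and 2 rose and 3 fell in R1 (2 and 1 held), 0 were called in R2 (1 higher at an unadjusted limma p under 0.05), 2 rose and 1 fell at MMS D3 (1 and 0 held), 3 and 1 at MMS D7 (2 and 0 held), 5 rose at MMS D14 (5 held), and 5 rose and 4 fell at MMS D28 (4 and 1 held). Their median was 0.23 in R1, -0.01 in R2, 0.45 at MMS D3 and 0.37 at MMS D7. It was 1.04 at MMS D14 and 0.74 at MMS D28. Of all cartilage genes 25.5% were called higher at MMS D14. At MMS D28 42.7% of them were called higher and 54.6% lower. Tgfbi, a matrix protein induced by TGF-beta, had a signal of 140 ± 10.3 at MMS D14, against 54.9 ± 7.54 in Control (1.34, limma adjusted p = 3.20e-05), which held. The falls in R1 came to 1 without Control replicate 1, Control replicate 2 or R1 replicate 1, and those at MMS D28 to 2 without Control replicate 1 or MMS D28 replicate 1. The falls at MMS D3 and MMS D7 ended on leaving out any 1 library, and the rises at MMS D3 came to 1 without MMS D3 replicate 1.

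Genes of BMP signalling and of adipocyte commitment were listed for the known role of Wisp2 in precursor cells. In synovium 4 of 25 were measured. Zfp521, a zinc finger protein that restrains adipogenesis, rose in R1, R2, MMS D7 and MMS D14, and the adipogenic factors Pparg, Cebpa and Klf15 fell. The falls numbered 2 in R1, 3 in R2, 1 at MMS D3, 3 at MMS D7 and 3 at MMS D14, and all but that at MMS D3 held. Of all synovium genes 45.2%, 45.1%, 39.6%, 61.6% and 69.3% were called lower in the same order, so falls were common. The list median was -0.59 in R1, -0.86 in R2, -0.25 at MMS D3, -1.02 at MMS D7 and -1.98 at MMS D14. The median of all genes was -0.38, -0.38, -0.34, -0.65 and -1.08. The rise of Zfp521 held in R1, R2 and MMS D14 and ended at MMS D7 without Control replicate 3, MMS D7 replicate 1 or MMS D7 replicate 2. The fall of Cebpa at MMS D3 ended without any 1 library but MMS D3 replicate 2, where Pparg fell as well. Pparg at MMS D3 was also called with the replicate block (adjusted p = 0.0402, against 0.0710 without).

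Pparg, the master regulator of fat cells, averaged 74.3 ± 10.7 FPKM in R1 and 53.5 ± 8.17 FPKM in R2, against 122 ± 20.2 FPKM in Control, and 30.0 ± 5.79 FPKM at MMS D14 (-1.99 ± 0.19, limma adjusted p = 5.59e-08). Zfp521 averaged 9.96 ± 1.22 FPKM in R1 and 10.47 ± 1.33 FPKM in R2, against 5.85 ± 1.18 FPKM in Control, and 14.5 ± 1.87 FPKM at MMS D14 (1.19 ± 0.20, limma adjusted p = 2.91e-05). Adipocyte markers moved with these genes. Their sum over 16 of 16 measured markers, Pparg among them, was 14839 to 16700 FPKM in R1 and 14474 to 16658 FPKM in R2, against 29686 to 35440 FPKM in Control. It was 14514 to 25081 at MMS D3, 13518 to 14719 at MMS D7 and 5117 to 8354 FPKM at MMS D14, with no marker at 0, and its part in the results was not tested. In bulk tissue, fewer cells of a type and less RNA per cell cannot be told apart.

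In cartilage 6 of 25 of these genes were measured, and 1 rose and 3 fell in R1 (0 and 1 held), 0 were called in R2 (0 also at an unadjusted limma p under 0.05), 1 fell at MMS D3 (0 held), 2 fell at MMS D7 (0 held), 1 rose and 3 fell at MMS D14 (0 and 2 held) and 1 rose and 5 fell at MMS D28 (1 and 4 held). The BMP antagonist Grem1 had a signal of 2.60 ± 0.184 at MMS D14, against 16.8 ± 3.75 in Control, a fall of 2.29 (limma adjusted p = 0.00031) that held. The falls in R1 came to 1 without Control replicate 1 or R1 replicate 2, and the rise ended without Control replicate 1 or R1 replicate 1. The falls at MMS D3 and the rise at MMS D14 ended on leaving out any 1 library, and the falls at MMS D7 came to 0 or 1 on leaving out any 1.

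Of 19 listed CCN receptors, which include integrins, syndecan and FGF receptors, synovium had Itga5 and Itga6. Itga5, the fibronectin receptor subunit, was at 79.1 ± 15.7 FPKM at MMS D14, against 27.1 ± 3.19 FPKM in Control (1.502 ± 0.27, limma adjusted p = 4.35e-05). It was called higher in all 5 groups and held in R2, MMS D7 and MMS D14. In R1 its call ended without any 1 library but Control replicate 2, and at MMS D3 without Control replicate 3 or MMS D3 replicate 1. Itga6 fell at MMS D3 and MMS D14, and neither held. Its MMS D14 call ended when centred, and its MMS D3 call when centred, with only the 2 groups fitted, or without Control replicate 2, Control replicate 3 or MMS D3 replicate 1. In cartilage 6 were measured, and 2 rose and 2 fell in R1 (1 and 0 held), 0 were called in R2 (2 lower at an unadjusted limma p under 0.05) and at MMS D7 (0 at an unadjusted p under 0.05), 2 rose at MMS D3 (0 held), 3 fell at MMS D14 (0 held), and 2 rose and 4 fell at MMS D28 (2 and 4 held). The MMS D14 falls came to 0 without Control replicate 1 and 1 without MMS D14 replicate 2, the MMS D3 rises to 0 or 1 on leaving out any 1 library, and the R1 falls likewise. The R1 and MMS D28 rises were of Itgb2 and Itgam, leukocyte integrin subunits. Neutrophil markers, 10 of 11 measured and none at 0, summed to 54628 to 56158 in R1 and 31021 to 39328 in R2, against 29965 to 30448 in Control. They summed to 26198 to 29275 at MMS D3, 22130 to 29838 at MMS D7, 35600 to 44216 at MMS D14 and 47255 to 61729 at MMS D28, and their part in these rises was not tested.

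Of 18 genes of the IGF axis 2 were measured in each tissue. In synovium Igfals, which binds circulating IGF complexes, fell in R1, R2, MMS D7 and MMS D14 and held, with 7.94 ± 0.342 FPKM at MMS D14, against 26.1 ± 9.38 FPKM in Control (-1.54, limma adjusted p = 3.08e-06). Igfbp3 rose at MMS D14 (0.84, adjusted p = 0.00845) and held. No IGF gene was called by limma at MMS D3 in synovium, and 0 at an unadjusted p under 0.05. Leaving out Control replicate 3 gave 1 fall there, and leaving out the 5 libraries with low Gm2023 gave 2. In cartilage Igfbp5 fell in R1, MMS D3, MMS D14 and MMS D28 and Igf1 rose at MMS D14, and none of these calls held, each ending on leaving out any 1 of at least 2 libraries. In R2 and at MMS D7 0 were called by limma, and 0 at an unadjusted p under 0.05.

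The fibroblast markers were set beside Wisp2, since fibroblast-like cells are known to make it. Of 19 listed, 9 were measured in each tissue, none at 0, and Postn, named above, is one of them. Their sum is unweighted, so abundant markers weigh most in it, and it is no count of cells. Their sum in synovium was 5127 to 5965 FPKM in R1 and 4924 to 6725 FPKM in R2, against 2402 to 2667 FPKM in Control. It was 3588 to 5358 at MMS D3, 9097 to 11910 at MMS D7 and 14504 to 16514 FPKM at MMS D14. As a multiple of the Control mean the sum was 2.16 in R1 and 2.39 in R2, and 1.86, 4.15 and 6.12 along MMS D3, D7 and D14. Wisp2 was at 3.56 and 3.42 times Control in R1 and R2 and at 11.3, 13.8 and 13.7 times along the MMS groups. The marker sums of MMS D3 overlapped those of R1 and of R2, while the Wisp2 levels of MMS D3 overlapped those of neither. Other marker sets of synovium also moved with the groups, none with a member at 0. Tendon markers, 5 of 8 measured, summed to 331 to 570 FPKM in R1 and 361 to 421 FPKM in R2, against 198 to 217 FPKM in Control, and to 246 to 470 at MMS D3, 678 to 724 at MMS D7 and 1239 to 1493 FPKM at MMS D14. Osteoblast markers, 5 of 13 measured, summed to 1311 to 1525 FPKM in R1 and 952 to 1782 FPKM in R2, against 587 to 701 FPKM in Control, and to 815 to 1638 at MMS D3, 2444 to 2942 at MMS D7 and 3292 to 4879 FPKM at MMS D14. Both sets thus lay above Control in every R1, R2 and MMS sample. They hold genes named above for likeness to Wisp2, Scx among the tendon markers and Ibsp among the osteoblast markers. Some marker lists also share members. Chondrocyte markers, 2 of 17 measured, summed to 499 to 573 FPKM at MMS D14, against 159 to 178 FPKM in Control. The lining markers, 4 of 8 measured, summed to 1097 to 1391 FPKM in R1 and 909 to 1870 FPKM in R2, against 600 to 769 FPKM in Control, and to 327 to 419 FPKM at MMS D14. The part of these marker levels in the Wisp2 level was not tested.

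**Figure D5:**
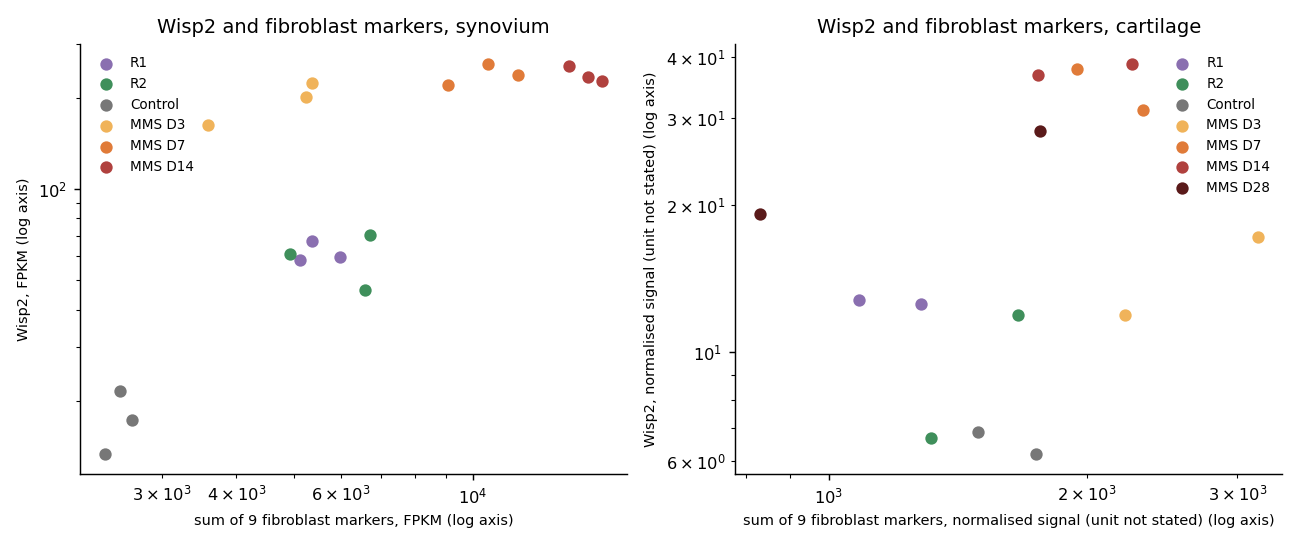
Wisp2 level against the summed level of the 9 measured fibroblast markers, per sample, in synovium (left, FPKM, log axes) and cartilage (right, normalised signal of unstated unit, log axes). Colours mark the groups. The MMS D3 synovium samples with 202 and 224 FPKM of Wisp2 lie at marker sums within the range of R1 and R2, whose Wisp2 levels are 46.4 to 70.4 FPKM, and the MMS D3 sample with 162 FPKM lies at a lower sum.

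In cartilage the fibroblast marker sum was 0.730 times Control in R1 and 0.919 times in R2, and 1.66, 1.32, 1.24 and 0.800 times along MMS D3, D7, D14 and D28, while Wisp2 reached 5.77 times at MMS D14. The highest marker sums, at MMS D3 with 2218 to 3168, did not fall in the group with the highest Wisp2. Chondrocyte markers, 14 of 17 measured and none at 0, summed to 8698 to 9029 in R1 and 10076 to 11268 in R2, against 11308 to 14812 in Control. They summed to 16044 to 16645 at MMS D3, 8620 to 12862 at MMS D7, 4218 to 4649 at MMS D14 and 4485 to 6448 at MMS D28. The sums of MMS D14 and MMS D28 overlapped and lay below those of all other groups, and their part in the Wisp2 level was not tested. Osteoblast markers, 9 of 13 measured and none at 0, summed to 2965 to 4625 in R1 and 5644 to 8501 in R2, against 5676 to 5928 in Control. They summed to 2353 to 2929 at MMS D3, 3674 to 3832 at MMS D7, 4032 to 4702 at MMS D14 and 2046 to 3408 at MMS D28. B cell markers, 8 of 10 measured and none at 0, summed to 334 to 364 in R1 and 873 to 892 in R2, against 677 to 721 in Control, and lay between 140 and 422 in all MMS groups. The part of these markers in the Wisp2 level was not tested either.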

How the data were processed

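RNA sequencing values of mouse synovium (18 samples) and cartilage (14 samples) were used as deposited. The authors deposited synovium values as FPKM, per the file headers. The authors deposited cartilage values as a normalised signal whose unit is not given in the sources used here. Reads were aligned with HISAT2 to mm10, per the submitters' processing notes. Replicates are separate columns in both tables.

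Values were taken to log2(value + 1), and 0 genes were lost to a low-value filter, which asked for 1 or more in a number of samples equal to the smallest group's size. Differences were fitted per tissue over all groups with limma 3.58.1 in R 4.3.3, its variance trend switched on, and Benjamini-Hochberg adjustment over all genes of the table, and genes were called at an adjusted p under 0.05. In all 15 comparisons were fitted. The fit was also run on simulated data with independent normal residuals and most genes left unchanged. These tables hold selected genes and libraries that stand apart, so that run does not vouch for the calls here. Fold changes on this scale understate those of low genes. Descriptions used Python 3.11.15, numpy 2.4.6, pandas 2.3.3 and matplotlib 3.10.9.

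The alternatives tried were a pseudocount of 0.1, subtraction of the sample's median log2 value (centring), no filter, no variance trend, only the 2 groups compared, a replicate block, each library left out, and, chosen after the data were seen, leaving out or adding a term for the 5 synovium libraries with Gm2023 and Gm6958 under 5 FPKM. For the genes most like Wisp2, a root mean square over group means was tried. Same-numbered synovium samples deviated together, with every correlation over 0.1, in R2, MMS D3 and MMS D14 against Control and in R2 against MMS D14. The correlations ran from 0.359 to 0.661, 0.128 to 0.404, 0.115 to 0.284 and 0.269 to 0.352 in that order. The highest of each was that of replicate 3, the number that the 5 libraries share. Pairing by number and the split by these libraries are therefore not separate observations. In cartilage the value passed 0.1 in R1 (0.125) and MMS D14 (0.214) against Control and in R2 against MMS D14 (0.235). The other cartilage values ran from -0.256 to 0.0392. With n = 2 the deviations within a group mirror each other, so both pairs give 1 value and cannot show pairing. In the remaining comparisons samples share only a number.

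Wisp2, the gene lists and the tests were chosen with earlier results of these data known. Named were Wisp2, every measured CCN family gene, up to 4 members per list and comparison with the smallest adjusted p among which examples were taken, and the 8 genes per tissue most like Wisp2, leaving out predicted models. Gene positions come from GENCODE vM21. The values of 1 list member are not reported here, though the list counts include it.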

Additional observations from a re-analysis of the deposited data

Results flagged for a closer look

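Among 17 genes examined that are in both tables, 7 lay above the base group in every synovium sample and below it in every cartilage sample of the same comparison, or the reverse. The tables were normalised separately and the difference between tissues was not tested. The share among all 240 genes in both tables was not counted, so the 7 are not read as a result about the tissues. Cilp, Ibsp, Postn and Tnfaip6 had been picked for likeness to Wisp2 in synovium, so their synovium course follows from that choice. Cilp, a cartilage matrix protein, had a synovium log2 difference from Control of 1.90 in R1, 2.58 at MMS D7 and 2.92 at MMS D14, where cartilage had -0.55, -1.17 and -2.09. With MMS D14 as the base, Cilp was at -1.02 in R1 and -1.51 in R2 in synovium and at 1.53 and 1.71 in cartilage. Ctgf was at 0.78 in R1 synovium and -0.74 in R1 cartilage.

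The frizzled receptors Fzd2 and Fzd8 were among these 7, while Fzd1 was called higher at MMS D14 in both tissues. Fzd2 was at 0.80 in R1, 0.89 in R2, 1.01 at MMS D7 and 1.43 at MMS D14 in synovium, and at -0.24, -0.24, -0.51 and -0.45 in cartilage. Fzd8 was at 0.65 in R1, 0.56 in R2, 0.59 at MMS D7 and 1.18 at MMS D14 in synovium, and at -0.57, -0.38, -0.39 and -0.81 in cartilage. With MMS D14 as the base, Fzd8 was at -0.54 in R1 and -0.62 in R2 in synovium and at 0.24 and 0.42 in cartilage.

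The bone sialoprotein gene Ibsp was at 1.11 in R1 and 1.87 in R2 in synovium, and at -0.63 and -0.53 in cartilage. Postn, which encodes periostin, was at 1.88 in R1 and 1.90 at MMS D3 in synovium, and at -0.44 and -0.46 in cartilage. Tnfaip6 was at 1.40 in R1 synovium and -0.30 in R1 cartilage. Wisp2 itself was above Control in both tissues in R1, R2 and the MMS groups, by group means.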

How the results depend on the processing

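The sign of the Wisp2 difference was the same in all 15 comparisons under each alternative that was run, though the R2 value in cartilage came to 0.03 without R2 replicate 1. Centring moved the Wisp2 log2 difference by more than 1 SD between replicates in synovium at MMS D7 (4.01) and MMS D14 (4.25) and with MMS D14 as the base in R1 (-2.27) and R2 (-2.31), and in cartilage in R1 (0.98), at MMS D14 (2.44) and in R1 with MMS D14 as the base (-1.46). A pseudocount of 0.1 gave 0.94, 2.51 and -1.57 for those 3 cartilage values. The cause of these moves was not tested.

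With only the 2 groups compared, 6 list members were called at MMS D3 in synovium, against 14 as reported, and in cartilage 18 at MMS D3 (11 as reported). In cartilage R1 with MMS D14 as the base it gave 467 genes and 17 list members, against 290 and 11. In cartilage R2 against Control, where 12 genes and 2 list members were called, it gave 0 and 0, the replicate block gave 1 and 0, and a pseudocount of 0.1 gave 1 list member. Centring gave 7 list members at MMS D7 in cartilage (11 as reported). A smaller number of samples enters these 2-group fits.

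The counts also moved on leaving out 1 library. List members at MMS D3 in synovium ran from 7 (without MMS D3 replicate 1) to 15. In cartilage the genes called ran from 536 to 799 in R1 (1112 as reported), 0 to 17 in R2, 126 to 206 at MMS D3 (383), 197 to 327 at MMS D7 (359) and 502 to 714 at MMS D14 (859), and with MMS D14 as the base from 117 to 170 in R1 (290) and 345 to 440 in R2 (573). List members ran from 10 to 20 in R1 (28 as reported), 0 to 1 in R2, 3 to 4 at MMS D3, 4 to 10 at MMS D7, and 3 to 7 in R1 with MMS D14 as the base. Of the 8 cartilage genes most like Wisp2, 4 to 8 stayed among the nearest. Fewer samples enter each of these fits, and the lone sample of a cartilage group is assumed to vary like the other groups.

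In the synovium comparisons where same-numbered samples deviated together, the replicate block changed the calls of only a few list members. They were Ctgf, Pparg and Fzd2 at MMS D3 and Nkd2 in R2, all gained. The labels do not say that the numbers pair samples. Depth is unknown, and n = 2 or 3 per group limits the precision.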
